A study of Mus musculus with 2 samples.

Results

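The Mir26 family comprised 3 microRNA genes, Mir26b, Mir26a-2 and Mir26a-1, chosen by their GENCODE M21 symbols out of 2202 microRNA genes with a count. Each lies in an intron of a gene for a small phosphatase of the Ctdsp group. Small RNA was sequenced from gastrocnemius, the large superficial muscle of the calf, of female B6CASTF1/J mice aged 14 days, which are first-generation offspring of C57BL/6J and CAST/EiJ parents. The labels give 1 untreated group with 2 biological replicates and no other tissue, age or genotype, so the data allow a description of levels and no test between conditions. They name 3 females for replicate 1 and 1 female for replicate 2, list the same donor identifier for both, and restrict the RNA to under 30 nt. Every SD below is therefore the spread between these libraries.

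A microRNA is cut from a hairpin precursor and guides a silencing complex to messenger RNAs that pair with its seed, bases 2 to 8. The family is known as a widely expressed group that favours cell differentiation and restrains growth. In mouse myoblasts its member miR-26a is known to rise as the cells differentiate and to repress Ezh2, a histone methyltransferase that keeps muscle genes silent. The host proteins Ctdsp1, Ctdsp2 and Ctdspl remove phosphate from the tail of RNA polymerase II and take part in silencing neuronal genes outside the nervous system. The files hold counts of microRNA genes, so the host transcripts were not measured.

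The mature 5p strands are shown first because their sequences decide which reads can be told apart. The seed is in capitals, the sequences are from the RefSeq table on GRCm38.p6, and all 3 genes matched by symbol and position.
Mir26b, miR-26b-5p: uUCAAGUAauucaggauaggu
Mir26a-2, miR-26a-5p: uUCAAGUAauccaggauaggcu
Mir26a-1, miR-26a-5p: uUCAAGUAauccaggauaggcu

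Mir26a-2 and Mir26a-1 encode the same 5p strand of 22 nt. The 5p strand of Mir26b has 21 nt and differs from it by C11U and C21U, counted from 1 at the 5′ end with the miR-26a base first. All of them carry the seed UCAAGUA. Among 1738 mature entries of the RefSeq table, no other microRNA had this seed.

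The 3p strands, shown with their seeds in capitals, differ between all 3 genes and so can mark each of them.
Mir26b, miR-26b-3p: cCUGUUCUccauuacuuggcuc
Mir26a-2, miR-26a-2-3p: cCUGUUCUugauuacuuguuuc
Mir26a-1, miR-26a-1-3p: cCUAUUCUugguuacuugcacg

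Mir26b and Mir26a-2 share the 3p seed CUGUUCU, which also occurs in miR-6932-3p and miR-7039-3p. The 3p seed of Mir26a-1, CUAUUCU, occurred in no other entry. The 3p strand of Mir26a-1 differs from that of Mir26a-2 at 6 of 22 positions and from that of Mir26b at 8.

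Levels are the deposited same-strand read counts divided by each library's total over microRNA genes, and are given in CPM, the usual unit of counts scaled to a common library total. These totals were 2672454 reads in replicate 1 and 4292012 in replicate 2. Reads that aligned to several places formed 52.7% and 52.4% of the libraries and, in the layout of the files, entered no gene's count. Of the 9 listed skeletal muscle microRNA genes 8 were expressed and together held 9.63% and 8.59% of counts. Mir206, a microRNA of skeletal muscle, alone held 9.51% and 8.47%, and the other 8 together held 0.122% and 0.118%, with Mir1a and Mir133a as copied genes whose counts are lower bounds. The 6 listed neuronal genes are the copies of Mir124a and Mir9. None was expressed and 5 had no read, but reads common to copies enter no gene, so these counts do not show that neuronal microRNAs were absent. Mir126a, the marker of endothelium, held 11.9% in each replicate, and Mir143 and Mir145a of smooth muscle held 2.02% and 2.09%. The 4 leukocyte genes held 0.119% and 0.0853%, the 2 red cell genes 0.0437% and 0.0185%, and Mir122 of hepatocytes 0.0229% and 0.00142%. The part of these cells in the Mir26 levels was not tested.

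Mir26b had 51851 reads in replicate 1 and 91643 in replicate 2, or 19402 CPM (95% exact binomial interval 19237 to 19568) and 21352 CPM (21215 to 21489). Both libraries held it at a similarly high level, ranked 12th and 11th of all microRNA genes. Its mean of 20377 ± 1379 CPM (SD, n = 2) was 2.04% ± 0.138 of the counts. RNA was taken from whole muscle, so more cells with the microRNA and more microRNA per cell cannot be told apart.

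Mir26a-2 had 162 reads in replicate 1 and 228 in replicate 2, which is 60.6 CPM (51.6 to 70.7) and 53.1 CPM (46.5 to 60.5). It stood at 56.9 ± 5.30 CPM (SD, n = 2), at rank 197 by mean CPM. Mir26a-1 had 10 and 17 reads, which is 3.74 CPM (1.79 to 6.88) and 3.96 CPM (2.31 to 6.34). With 3.85 ± 0.155 CPM (SD, n = 2) it was the lowest member by assigned reads, at rank 310. Reads common to both Mir26a genes enter neither count, so the levels of both genes are lower bounds. Both values rest on so few reads that the counting intervals span more than the SD.

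All 3 genes reached 1 CPM in both replicates, the level taken here as expressed, as did 367 of the 2202 microRNA genes (16.7%). The ranges of the 3 members over the replicates did not overlap one another. The hairpins measure 85, 84 and 90 nt in the order Mir26b, Mir26a-2 and Mir26a-1, so the order of assigned counts is the same per length. This order does not cover the reads common to both Mir26a genes. No read of any member fell on the opposite strand, which allows up to 1.12 CPM in replicate 1 and 0.699 CPM in replicate 2 for each gene, taking 3 reads as the limit. All intervals and limits cover counting error only.

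**Figure D1:**
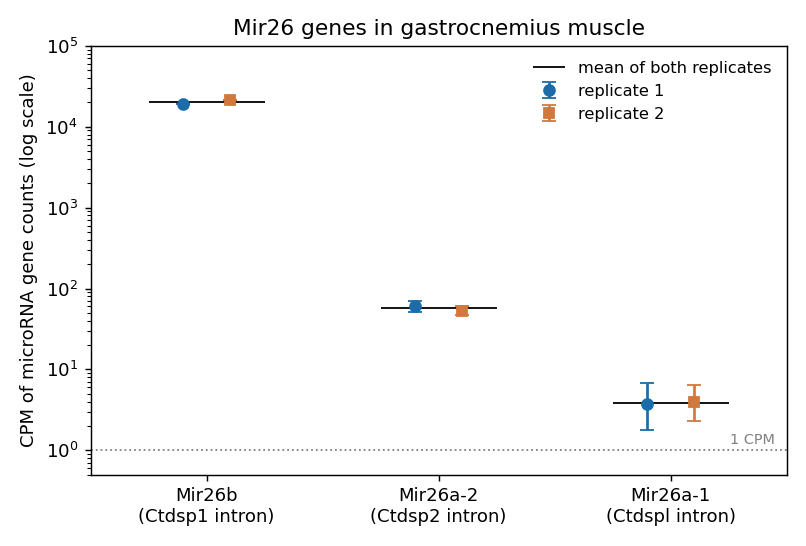
Level of each Mir26 gene in each replicate, in CPM of microRNA gene counts on a log scale. Points are the replicates with 95% exact binomial intervals and black lines their means, which were 20377 CPM for Mir26b, 56.9 CPM for Mir26a-2 and 3.85 CPM for Mir26a-1. The levels of both Mir26a genes are lower bounds.

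Mir26b made up nearly all of the family's assigned reads. Its share was 99.67% (95% exact binomial interval 99.62 to 99.72) of 52023 family reads in replicate 1 and 99.73% (99.70 to 99.77) of 91888 in replicate 2. Mir26b had 302 times as many reads as both Mir26a genes summed in replicate 1 (95% counting interval 260 to 352) and 374 times in replicate 2 (330 to 426). These ratios compare only reads assigned to 1 gene. They do not compare miR-26b with miR-26a, because a read inside the sequence common to both Mir26a genes fits 2 genes.

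The whole hairpins show where the copies can be told apart. Mature strands are in capitals and the sequences run 5′ to 3′ on the plus strand.
Mir26b, chr1:74394310-74394394: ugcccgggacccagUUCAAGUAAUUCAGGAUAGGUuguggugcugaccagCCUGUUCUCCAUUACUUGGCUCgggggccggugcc
Mir26a-2, chr10:126995530-126995613: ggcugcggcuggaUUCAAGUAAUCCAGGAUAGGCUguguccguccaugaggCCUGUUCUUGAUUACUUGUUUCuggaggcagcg
Mir26a-1, chr9:119031796-119031885: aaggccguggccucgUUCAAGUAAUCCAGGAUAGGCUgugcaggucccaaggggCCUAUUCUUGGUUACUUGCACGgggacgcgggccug

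The longest stretch common to the Mir26a hairpins was 25 nt, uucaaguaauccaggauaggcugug, which starts at the first base of the mature strand and runs 3 nt past its end. A read that starts at that base is found in a single annotated hairpin only from a length of 26 nt. A read of Mir26b that starts at the first base of its 5p strand is found in no other hairpin from 11 nt on. Mir26b shares at most 11 nt with Mir26a-1 and 10 nt with Mir26a-2. Only exact matches were searched. The 5p strands of Mir26b and Mir26a have just the base changes C11U and C21U, and reads with an error there were not considered.

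Windows of 22 nt were searched for exact matches in the hairpins of all 2202 genes, on both strands. Each Mir26a gene has 5 such windows within its 5p strand and 2 nt on each side, of which 2 occurred in no other hairpin. In the 3p strand all 5 windows of each Mir26a gene occurred in no other hairpin. For Mir26b none of the 64 windows of the hairpin occurred elsewhere, and the only sharing gene of each Mir26a hairpin was the other copy. The reads assigned to Mir26a-2 and Mir26a-1 can thus stem from their 3p strands or from 5p reads that extend past the common sequence, and their counts are lower bounds. The counts pool both strands of a hairpin, so no value can be given for 5p and 3p apart. Matches elsewhere in the genome were not searched.

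**Figure D2:**
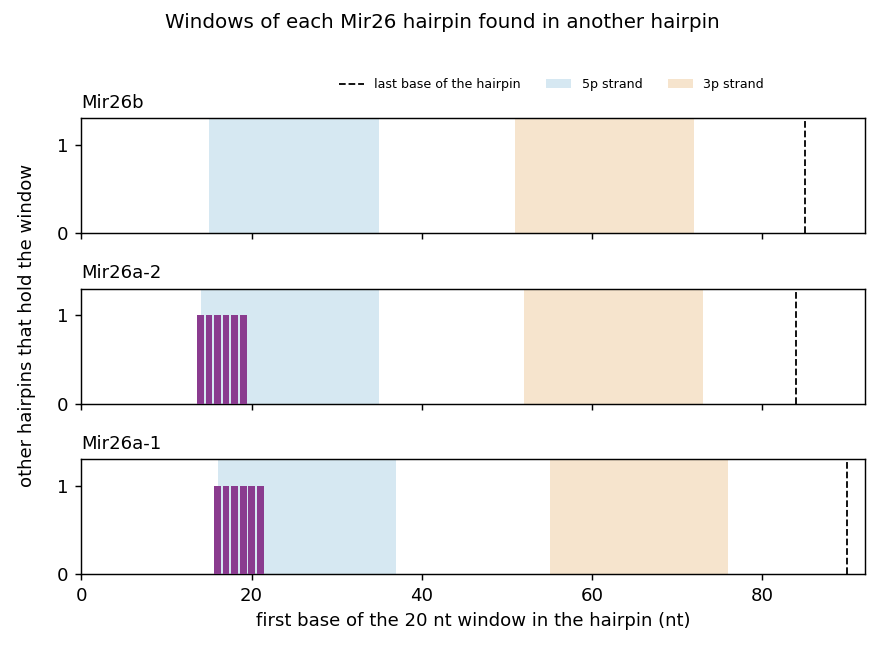
Number of other annotated microRNA hairpins that hold each 20 nt window of a Mir26 hairpin, by the position of the window's first base in nt. The Mir26a hairpins each have 6 shared windows, all starting within the 5p strand, and Mir26b has none. Blue and tan mark the 5p and 3p strands and the dashed line the last base of the hairpin.

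Multiply aligned reads numbered 4219456 in replicate 1 and 6352784 in replicate 2. A number of reads equal to the Mir26b count would be 1.23% of these in replicate 1 and 1.44% in replicate 2. The files do not say how many of them came from Mir26a, so the order of miR-26b and miR-26a in this muscle was not resolved.

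Among the reads that were assigned, Mir26a-2 exceeded Mir26a-1 in both libraries. The ratio of Mir26a-2 to Mir26a-1 was 16.2 in replicate 1 (95% counting interval 8.59 to 34.4) and 13.4 in replicate 2 (8.19 to 23.4), with a mean log2 ratio of 3.88 ± 0.193 (SD, n = 2). The intervals of the replicates overlap. The ratio describes the distinguishable reads of the copies and not their full output.

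The 3 host genes have a like layout. Mir26b lies in intron 4 of the 7-exon transcript Ctdsp1-201, Mir26a-2 in intron 5 of the 8-exon transcript Ctdsp2-202, and Mir26a-1 in intron 5 of the 8-exon transcript Ctdspl-201, all on the plus strand of host and hairpin. The hosts span 5.78 kb on chromosome 1 (Ctdsp1), 21.3 kb on chromosome 10 (Ctdsp2) and 118 kb on chromosome 9 (Ctdspl), so the most counted hairpin lies in the shortest host. The introns measure 564, 1946 and 3283 nt in the same order. In these 3 transcripts no exon overlaps a hairpin.

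Mir26b lies 234 nt after the preceding exon and 245 nt before the next. Mir26a-2 lies 241 nt before its next exon, and its last base, 126995613, is also the first base of exon 1 of the 3-exon transcript Ctdsp2-201 and a RefSeq start of Ctdsp2. Mir26a-1 lies 1543 nt after one exon and 1650 nt before the next. The other microRNA gene annotated within Ctdsp2, Mir546, had 0 reads in replicate 1 and 2 in replicate 2.

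Of all microRNA genes, 969 lie inside a protein-coding gene on its own strand, and 173 of these were expressed. That share is close to the one over all genes, 367 of 2202 (16.7%). As a class, the genes inside coding genes held 49.8% of counts in replicate 1 and 47.0% in replicate 2. Mir26b ranked 6th of them, after Mir126a, Mir378a, Mirlet7g, Mir23b and Mir22, and held 3.89% and 4.55% of the class. Mir26a-2 ranked 78th and Mir26a-1 134th.

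The ratio of replicate 2 to replicate 1 for Mir26b was 1.10 (95% counting interval from 1.09 up to 1.11). The interval leaves out 1, as it did for 153 of the 260 genes that averaged at least 10 CPM (58.8%), so this is common among these libraries. Most of these genes had fewer reads than Mir26b and so wider intervals. The share among genes of like level was not computed. Of the 69 genes that averaged at least 1000 CPM, 41 were farther apart than Mir26b. The median distance over all 69 was 1.12-fold.

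For Mir26a-2 the same ratio was 0.876 (0.713 to 1.08), and for Mir26a-1 it was 1.06 (0.458 to 2.59). Both intervals include 1. With 1 library on each side these values compare libraries and carry no test.

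**Figure D3:**
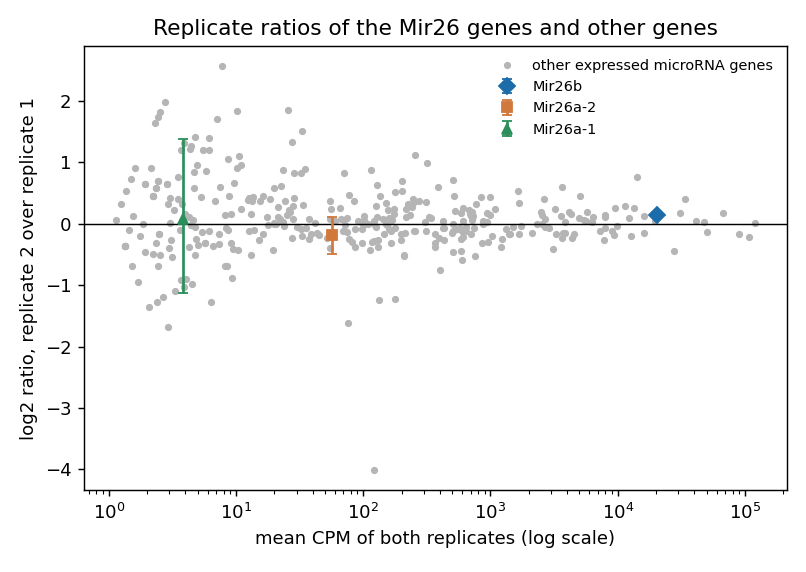
Log2 ratio of replicate 2 over replicate 1 against mean CPM on a log scale for expressed microRNA genes. Coloured points are the Mir26 genes with 95% counting intervals: Mir26b at 0.14, Mir26a-2 at -0.19 and Mir26a-1 at 0.08, amid the grey points of other genes of like level.

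The genes nearest in level were taken as the 3 next above and the 3 next below by mean CPM over the 2 replicates. Above Mir26b stood Mir411, Mir23a and Mir22, whose ranges over the replicates did not overlap that of Mir26b. Directly below it stood Mir143, a microRNA of smooth muscle and fibroblasts, at 19812 ± 483 CPM (SD, n = 2), whose range overlapped that of Mir26b. Mir379 and Mirlet7b followed without overlap. Mir26a-2 lay between Mir203 (59.8 ± 1.46 CPM) and Mir181a-2 (55.5 ± 6.52 CPM), and 5 of its 6 neighbours overlapped it. The exception was Mir210, a microRNA induced by low oxygen, at 66.4 ± 2.33 CPM. All 6 neighbours of Mir26a-1 overlapped it, and Mir5122 had the same 10 and 17 reads.

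The split between copied and single genes was set beside that of 11 other families whose listed members share a seed and include both kinds. The lists were partial, since other counted genes carry some of these seeds. In the Mir26 family the copied genes held 0.331% of family reads in replicate 1 and 0.267% in replicate 2. This was the second lowest share of the 12 families, whose median was 7.05%. Some shares rest on few reads. The copied genes had 4 and 2 reads in the Mir19 family and 11 and 21 in the Mir133 family. In every family, reads common to the copies enter no gene's count. The shares therefore order the families by assigned reads and not by output. The Mir1 and Mir206 family, which contains the main muscle microRNAs, was lower with 0.265% and 0.210%. The Mir30 family followed with 0.786% and 0.694%. At the other end, the copied genes Mir92-1 and Mir92-2 held 61.6% and 65.0% of the reads of their family with Mir25. The shares of Mir26 and of its neighbours in this order did not overlap between replicates, although 0.267% and 0.265% nearly met. When every other counted gene with the seed in the RefSeq table was added, a choice made after seeing the data, the median of the 12 families was 4.66%. That added 17 genes to 5 families, 8 of them with reads, of which Mir322, Mir351 and Mir98 had the highest levels. The share of copied genes was then 3.53% and 3.33% in the Mir15 and Mir16 family and 6.08% and 5.23% in the Mir125 family. Mir26 gained no gene and remained second lowest. The Mir1 and Mir206 family and the Mir133 family could not be extended in this way, because no seed was found in 2 or more of their listed genes in the table.

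**Figure D4:**
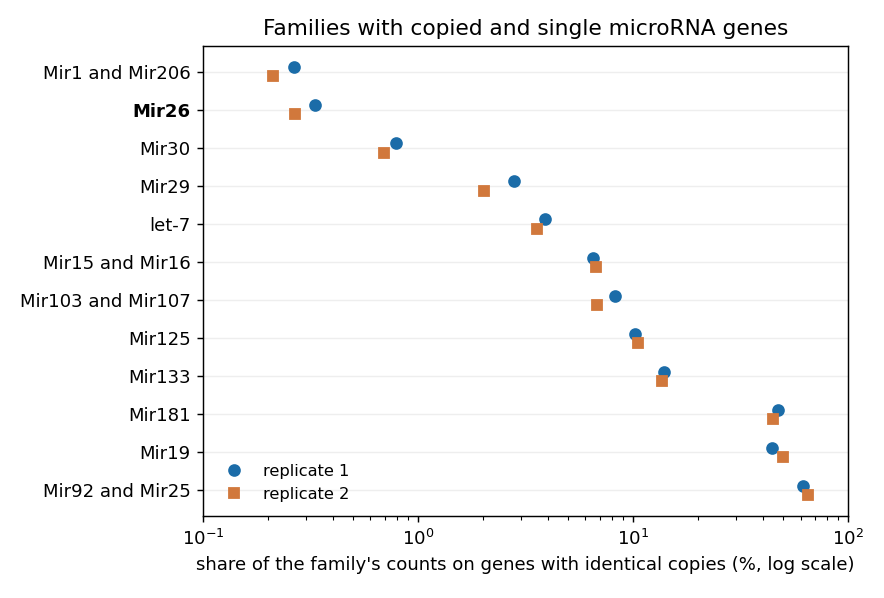
Share of each family's assigned reads that fell on genes with identical mature copies, in percent on a log scale, for both replicates of 12 families as listed. Mir26, in bold, had 0.331% and 0.267%, the second lowest after Mir1 and Mir206. The Mir19 shares rest on only 4 and 2 reads of the copied genes. Reads common to the copies are in no gene's count.

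In the reads assigned to a single copy, the lead of the higher Mir26a copy was among the larger ones of the copied pairs. The higher copy of each pair was named from the same reads, and no limit for an uneven pair was set. Reads common to the copies enter no gene's count, so these leads do not describe the full output of the copies. Of 15 pairs in these families, 13 had reads on both copies in both replicates. In 4 of them, Mir181b, Mir92, Mir1a and Mirlet7f, the higher copy led by more than Mir26a-2 did over Mir26a-1 in both replicates. In the other 8 it led by less. The counting intervals of the Mir26a ratio were 8.59 to 34.4 and 8.19 to 23.4. The ratios of Mir1a (31.19 and 19.7) and Mirlet7f (22.76 and 22.36) lay inside them, so their order against Mir26a was within counting error. The ratios of Mir181b and Mir92 lay above these intervals, and those of the other 8 pairs below. The longest stretch common to the copies was 22 to 31 nt in the 15 pairs, with 25 nt in Mir26a.

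The letters TACTTGA, which pair with the seed, were searched on the sense strand of the longest annotated 3′ UTR of each protein-coding gene to place the family among genes known as its targets. They occurred in 2029 of 21004 UTRs (9.66%), whose median length was 953 nt. Of 10 listed genes 7 had a match, but 9 of the 10 UTRs were longer than that median, at 1681 to 10217 nt. Among UTRs of 0.8 to 1.25 times the length of each of these 9, between 11.04% and 47.1% have a match, so the share over all UTRs is too low a background for the list. Ezh2 had 1 match in a UTR of 402 nt, where 2.89% of UTRs of like length have one. Gsk3b, a kinase that restrains glycogen synthesis and Wnt signalling, had 3 matches in 5515 nt, where 34.4% of UTRs of like length have at least 1. Of the hosts, Ctdsp2 had 1 match in 3489 nt (23.7% of UTRs of like length), whereas Ctdsp1 and Ctdspl had none. The matches of Ezh2 and of the host Ctdsp2 are shown with the letters that pair with the seed in capitals.
Ezh2, chromosome 6, minus strand, match at 47530287 to 47530293: tttcaaatttgaataaagaaTACTTGAa
Ctdsp2, chromosome 10, plus strand, match at 126997566 to 126997572: gttgtcccaagtgttgctctTACTTGAt

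A match describes these letters in the window and not binding, and the listed genes other than the hosts were chosen because they are known as targets. No messenger RNA was measured in these libraries.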

How the data were processed

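Small RNA of gastrocnemius was sequenced in 1 group of 2 replicates. The authors deposited unnormalised read counts for each microRNA gene on mm10 and GENCODE M21, per the text files beside the tables. Which aligner and counter they ran is not stated in the sources used here. The summary lines and the 3 count columns have the layout of STAR gene counts, taken as unstranded, gene strand and opposite strand. The gene-strand column was used. Summary lines, which name no gene, were kept out of the totals (66.6% of replicate 1 and 64.6% of replicate 2). All 2202 identifiers matched GENCODE M21.

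CPM, exact (Clopper-Pearson) 95% intervals, ratios with intervals from the binomial share, and sequence comparisons were computed in Python 3.11.15 with pandas 2.3.3 and scipy 1.17.1. Interval coverage was tested on simulated counts with counting error only, so that check does not cover other variation between libraries. Scaling alternatives used edgeR 4.0.16 and DESeq2 1.42.0 in R 4.3.3. Library size sets the precision, with 1 read worth 0.374 CPM in replicate 1 and 0.233 CPM in replicate 2. Named genes are the members, the 3 genes next above and below each by mean CPM, and 12 seed families with copied and single genes. Members and lists were chosen with earlier results of these data known. No test was made, because there is 1 group.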

Additional observations from a re-analysis of the deposited data

How the results depend on the processing

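The alternatives could not change the order of Mir26b, Mir26a-2 and Mir26a-1 within a library. Each divides the 3 genes by the same total, and their unstranded and gene-strand counts were equal. Of 50 recomputed values, 34 stayed within the spread between replicates, the counting interval or 1.5 times the main count. The other 16 moved, nearly all through the denominator. With 2 replicates, a value with 1 replicate left out always lies within their SD of the mean. The share of Mir26b in the family and the copy ratio rest on the same counts in the unstranded column. The 34 therefore include values that could not move. With the unstranded column, whose total was 26.5% and 24.8% lower, the levels were 27402 CPM for Mir26b, 76.6 CPM for Mir26a-2 and 5.18 CPM for Mir26a-1 from the same reads. Without the 10 most abundant genes in the denominator they were 52715, 147.5 and 9.97 CPM, and the family share was 5.29%. Over all reads of the library they were 7016, 19.5 and 1.32 CPM, and the family share was 0.704%. The log2 ratio of replicate 2 over replicate 1 for Mir26b was 0.105 with the unstranded column, 0.109 with TMM, 0.120 with DESeq2 size factors and 0.221 over all reads, against 0.138. With 1 replicate left out, the levels ranged from 19402 to 21352 CPM (Mir26b), 53.1 to 60.6 CPM (Mir26a-2) and 3.74 to 3.96 CPM (Mir26a-1), the share of Mir26b in the family from 99.67% to 99.73%, the log2 ratio of Mir26a-2 over Mir26a-1 from 3.75 to 4.02 and the family share from 1.95% to 2.14%. The number of expressed genes was 255 at 10 CPM in both replicates and 440 at 1 CPM in either, and 496 genes had a read in both. With every counted gene of the same seed added, the median share of copied genes over 12 families was 4.66%, against 7.05%. Depth limits Mir26a-1, with 10 and 17 reads, most. No paired analysis was possible because there is 1 group.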
